A study of Mus musculus with 4 samples.

Results

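The 9 genes described here, Gata3, Tbx21, Eomes, Hlx, Foxp3, Bcl6, Prdm1, Maf and Ahr, encode transcription factors that direct CD4 helper and effector T cell fates. They were found by gene symbol, and all 9 were present among the 50600 genes of the deposited tables, of which 21764 were protein-coding. RNA was sequenced in 4 libraries of primary T cells from C57BL/6NJ mice, which are biological replicates 1 to 4 of a single group in the labels. Age was given as unknown, sex was not recorded, and 1 donor entry served all 4 libraries. Although the assay is labelled as total RNA, the name of the library protocol speaks of polyadenylated RNA, and a protocol for differentiating CD4 T cells is attached. Headers of the count tables name the cells as Th0, a term used for cells activated without polarising cytokines, sorted, at 72 h. With 1 group there was no second condition, so levels were compared between genes inside each library and each gene was compared across the 4 libraries. Since nothing in the labels says that the libraries came from separate animals or cultures, every spread is that of these 4 libraries, and what part of it is technical was not tested.

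A naive CD4 T cell activated by antigen can take several fates, each tied to a lead factor. T-bet (the product of Tbx21), Eomes and Hlx drive Th1 and cytotoxic programmes with interferon gamma, GATA3 drives Th2 cells with interleukins 4, 5 and 13, and Foxp3 defines regulatory T cells. Bcl6 directs follicular helper cells and is opposed by Blimp-1 (the product of Prdm1), which directs terminal effector cells. c-Maf and Ahr, the receptor for dioxin and other aromatic ligands, act in several of these fates on interleukin 10, 21 and 22 genes.

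Total counts per library ran from 34978213 in replicate 1 to 118937382 in replicate 2. Levels are given as TPM, the length-scaled share of a transcript computed from the counts and exonic lengths. All 5 T cell markers had at least 1 TPM throughout, with Cd4 at 976 ± 29.3 and Cd8a at 0.267 ± 0.185 TPM (SD, n = 4). Cd8b1, the other CD8 T cell marker, was not low. The 2 CD8 markers summed to 18.13, 21.63, 17.54 and 29.46 TPM in replicates 1 to 4, nearly all of it Cd8b1. The libraries were not alike in sex-linked RNA. Xist, transcribed from the inactive X chromosome, had 278.4, 315.9, 1.25 and 0.586 TPM in replicates 1 to 4, and the Y-linked Ddx3y had 0.153, 0.0739, 41.19 and 33.96 TPM. Replicates 1 and 2 thus had the RNA pattern of female cells and replicates 3 and 4 that of male cells. The single donor entry of the labels does not account for this, and the group mixes both patterns. Malat1, a nuclear non-coding RNA, was at 348.0 and 246.0 TPM in replicates 1 and 3, the libraries with the fewest counts, against 63.2 and 59.3 TPM in replicates 2 and 4.

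Promoter sequences are shown for 3 of the genes, Gata3 as the most abundant of the 9, Prdm1 as the least abundant, and Foxp3 because its window lies within a non-coding gene read from the same strand. Each is the 250 bases before a RefSeq start site, on the gene's own strand, from GRCm38.p6. Capitals mark letters of the motifs searched on both strands.
Gata3, chr2:9878601-9878850, minus strand: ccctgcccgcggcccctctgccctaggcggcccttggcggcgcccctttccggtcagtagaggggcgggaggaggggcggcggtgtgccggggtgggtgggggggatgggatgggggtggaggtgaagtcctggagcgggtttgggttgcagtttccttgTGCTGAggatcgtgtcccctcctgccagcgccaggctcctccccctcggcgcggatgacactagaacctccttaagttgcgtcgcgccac
Foxp3, chrX:7579426-7579675, plus strand: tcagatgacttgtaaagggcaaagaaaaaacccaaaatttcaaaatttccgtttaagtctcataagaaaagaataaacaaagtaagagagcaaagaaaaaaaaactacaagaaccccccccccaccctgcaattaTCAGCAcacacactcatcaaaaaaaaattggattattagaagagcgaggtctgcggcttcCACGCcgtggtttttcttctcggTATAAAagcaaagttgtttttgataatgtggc
Prdm1, chr10:44458749-44458998, minus strand: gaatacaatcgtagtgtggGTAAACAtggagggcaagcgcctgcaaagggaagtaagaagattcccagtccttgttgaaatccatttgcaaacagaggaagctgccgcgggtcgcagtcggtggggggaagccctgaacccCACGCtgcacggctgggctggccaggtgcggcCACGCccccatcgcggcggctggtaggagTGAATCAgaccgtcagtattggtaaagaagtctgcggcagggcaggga
In all, 9 motifs were searched, chosen for most of the DNA-binding families among the 9 factors, with none for the homeobox of Hlx: the T-box half-site TCACACC, the GATA site AGATAA, the forkhead site GTAAACA, the Blimp-1 site AGNGAAAG, the Bcl6 site TTCCTAGAA, the Maf half-site TGCTGA, the AP-1 site TGANTCA, the Ahr response core GCGTG and the TATA box TATAAA. A Maf half-site followed by NTCA also holds an AP-1 site. The table held 9 windows for 7 of the genes, and Maf and Ahr were without one. The Gata3 window, at 70.0% GC, held 1 match, a Maf half-site starting 90 bases before the start site. The Foxp3 window, at 37.6% GC, held a reverse Maf half-site at 115 bases, a reverse Ahr core at 55 bases and a TATA box at 32 bases before the start site. The Prdm1 window, at 59.2% GC, held a forkhead site at 231 bases, reverse Ahr cores at 109 and 77 bases and an AP-1 site at 48 bases before the start site. The median window of all genes was at 52.4% GC. Among 32851 windows of all genes, the Maf half-site was in 16.1%, the Ahr core in 28.2%, the TATA box in 12.4%, the AP-1 site in 6.75% and the forkhead site in 3.17%. The windows of Bcl6, Eomes and Tbx21 held no match. A GATA site (9.99% of all windows) was found only in the second Foxp3 window among the 9, and the T-box (3.33%), Blimp-1 (7.30%) and Bcl6 (0.347%) sites were in none of the 9. A match is a string of letters in the window, not a measured site, and the motifs were chosen after the expression values were seen.

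The 9 factors ran from rank 4697 to rank 13593 of 21764 protein-coding genes by mean TPM. In order of mean TPM they were Gata3, Ahr, Bcl6, Eomes, Tbx21, Hlx, Foxp3, Maf and Prdm1. Of the 9, 7 reached a TPM of 1 in every library, against 49.9% of protein-coding genes and 24.8% of all genes, and the exceptions were Maf and Prdm1. Their median mean level was 3.36 TPM, beside 1.43 TPM over protein-coding genes. A TPM of 5 in every library was reached by 3 of them, Gata3, Ahr and Bcl6. In libraries made from many cells, a low level can come from few cells with much RNA of a gene or from many cells with little, and these cannot be told apart.

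**Figure D1:**
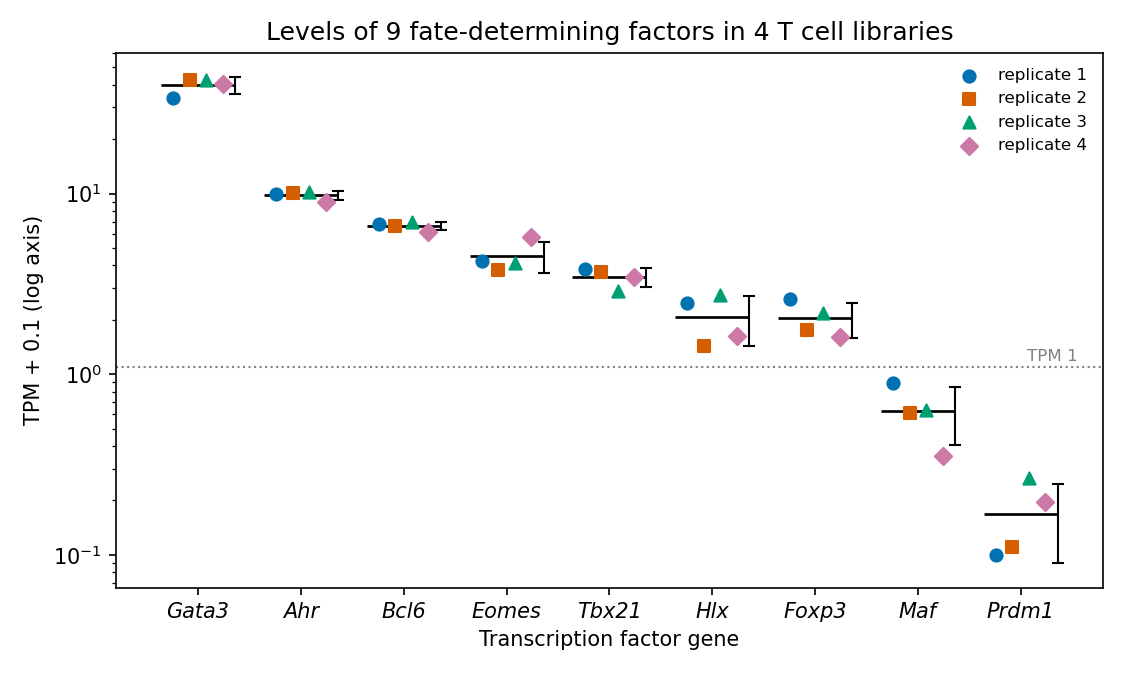
Levels of the 9 genes in each library, as TPM + 0.1 on a log axis, with 1 point per library; horizontal lines are means, bars are SDs (n = 4) and the dotted line is a TPM of 1. Gata3 lay highest in every library, Prdm1 lay lowest, and the points of Hlx and Foxp3 covered the same range.

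Gata3 (ENSMUSG00000015619.10, chr2:9857078-9890034, minus strand, mm10), the zinc finger factor of Th2 cells that T cells also need throughout development, was the most abundant. It had 33.6, 42.6, 42.4 and 40.2 TPM in replicates 1 to 4, from 1508, 6174, 2189 and 4721 counts, and averaged 39.7 ± 4.23 TPM (SD, n = 4). Replicate 1 was lower than the others by more than its counting error, with an exact Poisson 95% interval of 31.9 to 35.3 TPM. Its level exceeded that of Ahr, the next in order, by 2.02 ± 0.175 on the log2(TPM + 0.1) scale in 4 of 4 libraries (exact two-sided sign-flip p = 0.13, adjusted p = 0.13 over 36 pairs). That p is the smallest 4 libraries can give, so no pair of genes could pass 0.05 here. Over Tbx21, the lead factor of the opposing Th1 fate, the difference was 3.53 ± 0.306 log2 and was positive in all 4 (exact sign-flip p = 0.13).

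In the annotation, 3 other genes overlap the span of Gata3. Gm13256, an antisense gene, covers all 250 bases of the Gata3 window printed above and had 3, 30, 4 and 14 counts in replicates 1 to 4, or 0.900 ± 0.487 TPM. Also opposite, 4930412O13Rik had 15, 1, 0 and 26 counts, without a common level in the libraries. On the same strand as Gata3, 9230102O04Rik had 4, 6, 2 and 15 counts. Reads that touch exons of both same-strand genes were not counted for either, and opposite-strand reads were separated by the strand setting.

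Signalling and partner genes around Gata3 were abundant, with 9 of 10 at 1 TPM or above in each library and a median mean level of 118.7 TPM. Junb, an AP-1 subunit that binds the Il4 promoter, was at 1220 ± 103 TPM, Il2rg, the common cytokine receptor chain, at 548 ± 28.6, Stat6, the transducer of interleukin 4, at 281 ± 18.3, and Il4ra, its receptor chain, at 143 ± 13.4 (SD, n = 4). Target genes of Gata3 reached that level in 5 of 12 cases, with a median of 0.591 TPM. The chemokine receptors Ccr4 and Ccr8 were at 161 ± 8.86 and 150 ± 18.3 TPM. Among the Th2 cytokines, Il13 ran from 19.97 TPM in replicate 3 to 29.66 TPM in replicate 2, and the growth factor Areg averaged 7.52 ± 0.986 TPM. Il4, named for its role, had 1.66, 0.537, 0.817 and 0.414 TPM, from 13 to 24 counts, and Il5 had 2, 17, 3 and 33 counts. Il13 was thus above Il4 in every library, and no gene of either list varied between libraries in the test described below.

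Tbx21 (ENSMUSG00000001444.2, chr11:97098071-97115331, minus strand, mm10), which encodes T-bet, had 3.74, 3.59, 2.79 and 3.33 TPM in replicates 1 to 4, from 105, 325, 90 and 245 counts. Its mean was 3.36 ± 0.416 TPM (SD, n = 4). Eomes (ENSMUSG00000032446.14, chr9:118478212-118486132, plus strand, mm10), the related T-box factor of cytotoxic and memory cells, had 4.16, 3.69, 4.05 and 5.67 TPM, from 195, 559, 218 and 696 counts, and averaged 4.39 ± 0.876 TPM. The ranges of these genes over the libraries overlapped. Inside each library, however, Eomes was above Tbx21, by 0.149, 0.041, 0.521 and 0.749 log2 in replicates 1 to 4, a mean of 0.365 ± 0.328 (exact sign-flip p = 0.13). In replicates 1 and 2 the difference was within the counting error of both genes. The 95% intervals in replicate 1 were 3.59 to 4.78 TPM for Eomes and 3.06 to 4.53 TPM for Tbx21. In replicate 2 they were 3.39 to 4.01 TPM for Eomes and 3.21 to 4.00 TPM for Tbx21. In replicates 3 and 4 the intervals of the genes did not overlap. Replicate 4 was the highest for Eomes, at 5.26 to 6.11 TPM by its counting interval. Gm33460, opposite Eomes, had 3, 80, 7 and 23 counts and was highest in replicate 2.

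Hlx (ENSMUSG00000039377.7, chr1:184727140-184732619, minus strand, mm10), a homeobox factor that acts with T-bet on the Ifng gene, had 2.37, 1.33, 2.64 and 1.53 TPM in replicates 1 to 4, from 61, 110, 78 and 103 counts. Replicates 1 and 3 were both above replicates 2 and 4, and the mean was 1.97 ± 0.638 TPM (SD, n = 4). Tbx21 exceeded Hlx by 0.789 ± 0.563 log2 in 4 of 4 libraries, though by only 0.076 in replicate 3.

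All 13 Th1 signalling genes and T-box partners had at least 1 TPM throughout, at a median of 33.4 TPM. Il12rb1, a receptor chain for interleukin 12, was at 122 ± 10.8 TPM, Stat4, its transducer, at 100.2 ± 7.59, and Cbfb and Runx3, which form a complex that works with T-bet, at 107 ± 6.73 and 68.5 ± 4.86 (SD, n = 4). Il12rb2, the second receptor chain and a gene that T-bet raises, was at 3.44 ± 0.488 TPM. Of 15 target genes of T-bet and Eomes, 10 did so, and the median over the list was 20.75 TPM. Il2rb and Fasl, the interleukin 2 receptor beta chain and the Fas ligand, were at 411 ± 35.9 and 80.7 ± 6.29 TPM, and the granule protease Gzmb had 19.1, 17.4, 21.2 and 27.1 TPM, highest in replicate 4 as Eomes was. Ifng, the hallmark target, had 0, 4, 18 and 19 counts in replicates 1 to 4, which is 0, 0.0848, 1.07 and 0.497 TPM. It was lower in replicates 1 and 2, the pair with high Xist, than in replicates 3 and 4, the pair with high Ddx3y. The part of sex-linked differences between the libraries in this was not tested.

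The chemokine genes Ccl4 and Ccl3 were the 2 that varied between libraries among 154 tested of the 221 genes listed around these factors, where 0.463% of all genes tested did. Ccl4 had 824.2, 747.8, 612.9 and 569.6 TPM in replicates 1 to 4 (edgeR goodness of fit, adjusted p = 4.06e-04). Ccl3 had 524.1, 433.2, 421.2 and 343.7 TPM (adjusted p = 5.08e-04). Both were highest in replicate 1 and lowest in replicate 4. Neither call held with a correction for GC content and length (adjusted p = 0.11 for Ccl4 and 0.24 for Ccl3), with limma (0.183 and 0.216), without replicate 1 (0.229 and 0.641) or without replicate 4 (0.0690 and 0.288).

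Among other T-box genes, 2 of 15 had at least 1 TPM in each library. They were Mga, a dual T-box and helix-loop-helix factor that partners Max, at 24.0 ± 1.55 TPM and Tbx6, known from paraxial mesoderm, at 4.39 ± 0.725 TPM (SD, n = 4). Tbx19 and Tbx2 averaged 0.464 and 0.0769 TPM, and 6 had no count in any library. Of the GATA family, Trps1 was at 9.10 ± 0.652 TPM and Gata1, the erythroid factor, at 0.847 ± 0.411 TPM, with Gata2 at 0.236, Gata4 at 0.0817 and no count for Gata5 or Gata6. Of 6 homeobox relatives of Hlx, only Hhex reached a TPM of 1 in every library, at 2.09 ± 0.612 TPM. Barx2 averaged 0.186 TPM, Dbx1 and Dbx2 had a count in 1 library each, and Tlx1 and Vax1 had none.

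Foxp3 (ENSMUSG00000039521.12, chrX:7579676-7595243, plus strand, mm10), the forkhead factor of regulatory T cells, had 2.509, 1.658, 2.088 and 1.502 TPM in replicates 1 to 4, from 113, 241, 108 and 177 counts. It averaged 1.94 ± 0.454 TPM (SD, n = 4), with replicates 1 and 3 above replicates 2 and 4. Hlx and Foxp3 were the neighbours in the order that did not differ beyond their spread. The difference of Hlx minus Foxp3 was -0.008 ± 0.261 log2, positive in 2 of 4 libraries (exact sign-flip p = 1.0), and its sign changed with a pseudocount of 1 (0.001). By CPM, which is not scaled to length, Hlx minus Foxp3 was -0.771 log2, with Hlx lower in 4 of 4 libraries (exact sign-flip p = 0.13).

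In the annotation, 2 non-coding genes and 1 coding gene overlap Foxp3. Flicr, a non-coding RNA known to modulate Foxp3 in mouse regulatory T cells, lies on the same strand over the window printed above. It had 10, 88, 30 and 65 counts, or 0.248, 0.676, 0.648 and 0.616 TPM, in replicates 1 to 4. Flicr was thus lowest in replicate 1, where Foxp3 was highest. Gm36995, on the opposite strand across the whole of Foxp3, had 17, 123, 45 and 34 counts, and Ccdc22, an endosomal trafficking gene at the 3′ end, was at 4.22 ± 0.501 TPM.

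Partners and inducers of Foxp3 were all present, 14 of 14 at a TPM of 1 in every library, with a median of 54.3 TPM. Il2ra, the high-affinity interleukin 2 receptor chain, was at 485 ± 37.1 TPM, Uhrf1, which maintains DNA methylation, at 295 ± 13.8, and Stat5b and Stat5a, which bind the Foxp3 locus, at 113 ± 8.54 and 107 ± 5.68 (SD, n = 4). Of 14 genes of the regulatory T cell programme, 12 reached that level, led by genes that activated T cells of other kinds also express. Tnfrsf18 and Ctla4, a costimulatory and an inhibitory receptor, were at 1201 ± 77.5 and 859 ± 22.0 TPM, and Ebi3, a cytokine subunit, at 354 ± 23.6. Markers more restricted to regulatory T cells were lower. Ikzf2 was at 6.97 ± 0.664 TPM, Gpr83 at 2.28 ± 0.344, and Lrrc32 had 2.80, 4.44, 5.28 and 5.53 TPM in replicates 1 to 4. Lrrc32 and Gpr83 were lowest in replicate 1, the library in which Foxp3 was highest. Ikzf2 went the other way, at 7.72, 7.29, 6.65 and 6.23 TPM in replicates 1 to 4. Like Foxp3, it was highest in replicate 1 and lowest in replicate 4. Summed over the 4 regulatory T cell markers, Foxp3 included, the level was 15.0 to 16.3 TPM. Other Foxp genes were above Foxp3, with Foxp4 at 162 ± 10.1, Foxp1, which keeps naive T cells quiescent, at 62.9 ± 3.84, and Foxp2 at 2.89 ± 0.151 TPM.

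Bcl6 (ENSMUSG00000022508.5, chr16:23965052-23988852, minus strand, mm10), the BTB zinc finger repressor of follicular helper cells, had 6.66, 6.51, 6.86 and 6.05 TPM in replicates 1 to 4, from 504, 1590, 596 and 1197 counts. With a mean of 6.52 ± 0.346 TPM (SD, n = 4) it was among the steadiest of the 9, and the counting intervals of all 4 libraries shared values from 6.322 to 6.402 TPM. Bcl6 exceeded Eomes by 0.577 ± 0.329 log2 in 4 of 4 libraries, by 0.091 in replicate 4. Gm37419, on the opposite strand, had 1 count in all.

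Prdm1 (ENSMUSG00000038151.13, chr10:44437177-44528501, minus strand, mm10), whose product Blimp-1 represses Bcl6 and is repressed by it, had 0, 2, 12 and 16 counts in replicates 1 to 4. In TPM this is 0, 0.00984, 0.166 and 0.0971, a mean of 0.0682 ± 0.0784 (SD, n = 4). The 0 in replicate 1 allows up to 3 counts, or 0.0476 TPM, as a one-sided limit, and 0.0586 TPM by the two-sided exact interval used for the other libraries. Without replicate 3 the mean was 0.0357 TPM. Replicates 1 and 2 were both lower than replicates 3 and 4, and the counting interval of replicate 2, 0.00119 to 0.0355 TPM, lay below those of replicates 3 and 4, which began at 0.0857 and 0.0555 TPM. These pairs of libraries are also those that Xist and Ddx3y part, and the part of that in Prdm1 was not tested. The level of Prdm1 was below that of Bcl6 in 4 of 4 libraries, a difference of Prdm1 minus Bcl6 of -5.42 ± 0.681 log2 (exact sign-flip p = 0.13) that understates the gap at so low a level.

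Corepressors of Bcl6 reached a TPM of 1 in every library in 7 of 8 cases, with a median of 84.2 TPM. Nacc1 was at 193 ± 15.1 TPM, Bcor, which binds the BTB domain of Bcl6, at 109 ± 5.38, Hdac3, a histone deacetylase, at 98.5 ± 0.470 and Cul3, a ubiquitin ligase scaffold, at 88.0 ± 2.65 (SD, n = 4). Follicular helper genes reached it in 12 of 16 cases. The inhibitory receptors Pdcd1 and Btla were at 523 ± 26.4 and 373 ± 20.98 TPM, Cd40lg, the helper ligand for B cells, at 402 ± 11.3, and Tcf7, which raises Bcl6, at 311 ± 9.89. Other defining follicular genes were low, the homing receptor Cxcr5 at 2.69 ± 0.513 TPM, the cytokine Il21 at 0.0695 ± 0.0421 and the factor Ascl2 at 0.0598 ± 0.0716. Inducers and targets of Prdm1 reached a TPM of 1 in 13 of 14 cases, at a median of 203.5 TPM. Il2, a cytokine that Blimp-1 represses, was at 621 ± 80.05 TPM, Irf4, which activates Prdm1, at 528 ± 27.8, and Id3 and Myc, which Blimp-1 represses, at 471 ± 13.6 and 425 ± 30.8. Genes known to activate Prdm1 and genes known to be repressed by it were both abundant beside fewer than 20 Prdm1 counts in any library. Il10, a cytokine raised by Blimp-1, had 0, 2, 3 and 1 counts. Of 16 BTB and PRDM relatives, 11 reached a TPM of 1, led by Zbtb32, a repressor of Gata3 activity, at 386 ± 39.1 TPM and Zbtb7b, the factor of the CD4 lineage, at 99.9 ± 7.07, then Prdm4 at 59.5 ± 3.13 and Prdm2 at 40.7 ± 2.13.

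Maf (ENSMUSG00000055435.6, chr8:115682942-115707794, minus strand, mm10), which encodes the leucine zipper factor c-Maf, had 0.796, 0.513, 0.534 and 0.255 TPM in replicates 1 to 4, from 74, 154, 57 and 62 counts. Replicate 1 was highest and replicate 4 lowest, 3.12-fold apart, and their exact Poisson 95% intervals, 0.625 to 0.999 TPM and 0.195 to 0.327 TPM, did not overlap. The mean was 0.524 ± 0.221 TPM (SD, n = 4). Foxp3 exceeded Maf by 1.76 ± 0.304 log2 and Maf exceeded Prdm1 by 1.94 ± 1.07 log2, each in 4 of 4 libraries (exact sign-flip p = 0.13). Gm15655, on the opposite strand, had no count.

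The genes most like Maf across the 4 libraries were sought among 12158 protein-coding genes, by the smallest root mean square difference of centred log2 CPM. Here CPM is counts scaled to the library total after TMM adjustment. Among the nearest were Fcer1g, the signalling chain of Fc receptors on myeloid and NK cells, with a difference of 0.136 log2, and Slit3, a secreted guidance protein, with 0.143. Fcer1g had 3.95, 3.11, 2.56 and 1.20 TPM in replicates 1 to 4. Markers of other cells moved in part with Maf. The 5 B cell markers summed to 5.59, 3.20, 2.25 and 3.71 TPM, the 4 NK markers to 1.26, 0.581, 0.133 and 0.713 TPM, and the 7 dendritic cell and macrophage markers to 6.08, 4.57, 5.11 and 5.08 TPM. Each sum was highest in replicate 1, but none was lowest in replicate 4 as Maf was. Of those 7, 2 reached a TPM of 1 in every library and 3 in at least 1, while Itgax and Lyz2 had no count in any. The part of B, NK, dendritic or macrophage cells in the level of Maf was not tested.

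Of 8 genes of the Maf family and its Bach partners, 5 reached a TPM of 1 in every library. Bach2, which holds back effector fates, was at 108 ± 6.97 TPM, and the small Maf genes Mafg, Mafk and Maff were at 39.2 ± 4.07, 32.2 ± 2.05 and 9.83 ± 0.113 (SD, n = 4). Target genes of c-Maf reached it in 3 of 9 cases, with a median of 0.0763 TPM. Among them were Ccr6, a chemokine receptor of Th17 cells, at 438 ± 34.7 TPM and the costimulator Icos at 195 ± 6.45, while Il4 averaged 0.857 ± 0.562 TPM.

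Ahr (ENSMUSG00000019256.17, chr12:35497974-35535038, minus strand, mm10), the ligand-activated member of the 9, had 9.817, 10.02, 10.08 and 8.889 TPM in replicates 1 to 4, from 683, 2249, 805 and 1618 counts, and averaged 9.70 ± 0.551 TPM (SD, n = 4). No other gene overlaps it, nor Prdm1, Hlx or Tbx21. Ahr exceeded Bcl6 by 0.565 ± 0.032 log2 in 4 of 4 libraries, the steadiest difference of any neighbouring pair. That order rests on the length used. With the length of the longest transcript in place of all exons, Ahr minus Bcl6 was -0.044 log2, positive in 1 of 4 libraries (exact sign-flip p = 0.25).

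The chaperone complex that holds Ahr in the cytoplasm and its nuclear partner were present, 5 of 6 genes at a TPM of 1 in every library. Hsp90ab1 was at 4440 ± 177 TPM, Hsp90aa1 at 495 ± 21.8, the co-chaperone Ptges3 at 142 ± 10.2, and Arnt, the dimer partner on DNA, at 33.0 ± 3.02 (SD, n = 4). Ahrr, the repressor that Ahr itself induces, was at 0.24 ± 0.062 TPM. Of 10 Ahr target genes, 3 had at least 1 TPM in each library, and the median over the list was 0.432 TPM. The 3 were Tiparp at 5.13 ± 0.530 TPM, Nqo1 at 3.49 ± 0.558 and Cyp1a1, the cytochrome that reports Ahr ligands most directly, at 1.27, 2.24, 1.58 and 2.04 TPM in replicates 1 to 4. Aldh3a1 averaged 0.840 ± 0.270 TPM, Cyp1b1 had 1 count in all and Cyp1a2 had none. Of 9 related helix-loop-helix PAS genes, 5 reached that level, among them the hypoxia factors Hif1a at 161 ± 17.0 TPM and Epas1 at 2.69 ± 0.337 and the clock gene Arntl at 11.4 ± 1.14.

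**Figure D2:**
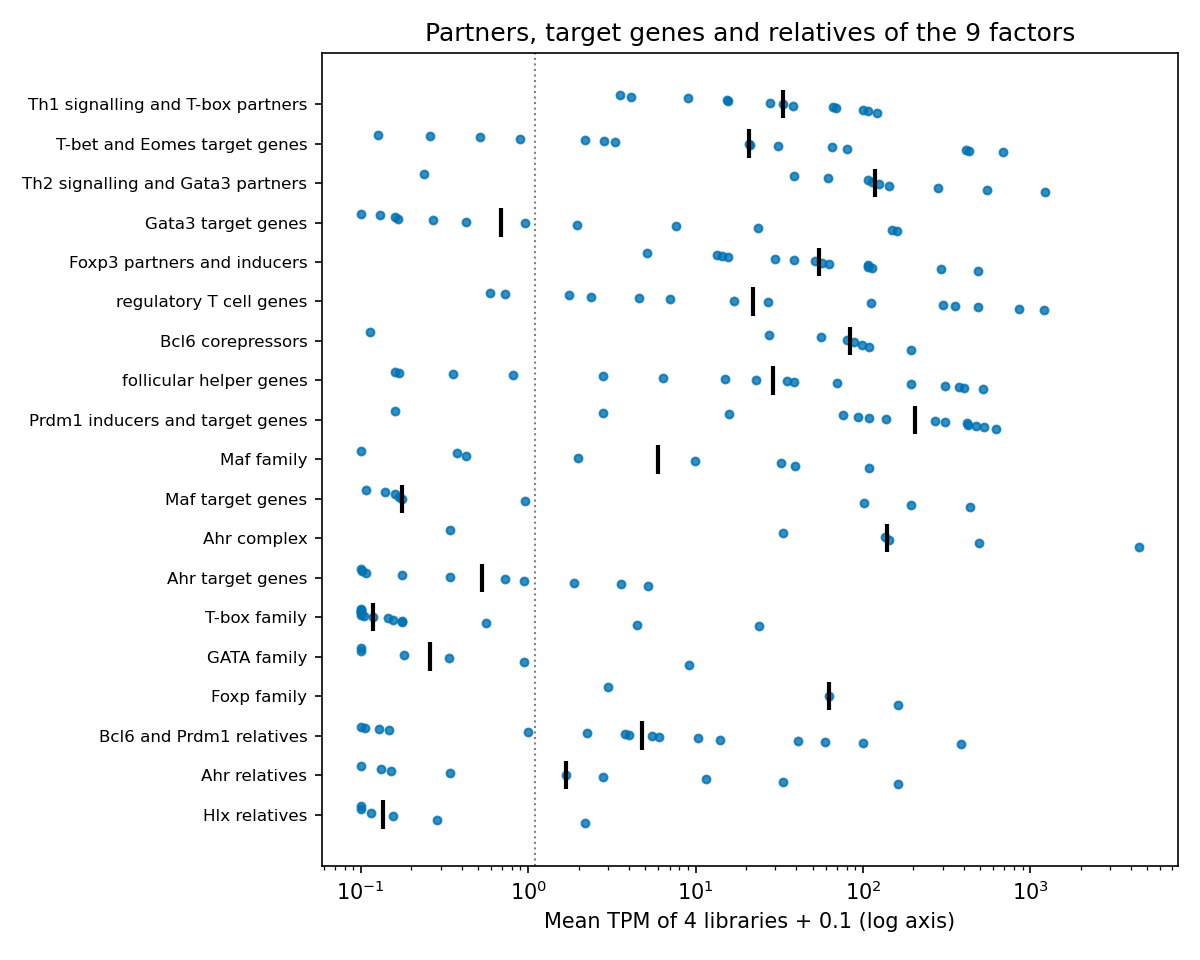
Mean TPM + 0.1 over 4 libraries, on a log axis, of the genes in each list of partners, targets and relatives, with 1 point per gene, a bar at the list median and a dotted line at a TPM of 1. The medians of the Th1, Th2, Foxp3, Bcl6 and Ahr signalling and partner lists lay between 33.4 TPM (Th1) and 138.6 TPM (Ahr complex). The Maf family with its Bach partners was at 5.86 TPM. The Prdm1 list, which mixes inducers with targets, was at 203.5 TPM. Those of the T-bet and Eomes, Gata3, Maf and Ahr target lists were at 20.75, 0.591, 0.0763 and 0.432 TPM.

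Across all 36 pairs of the 9 genes, 35 kept 1 direction in every library, the exception being Hlx and Foxp3. Of the 8 neighbouring pairs, Eomes with Tbx21 and Hlx with Foxp3 had ranges that overlapped over the libraries. The order is per exonic length and holds for TPM.

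Whether any factor differed between the 4 libraries more than genes of its level was tested with edgeR, as the goodness of fit of each gene to a constant level under the trended dispersion. None of the 8 factors that passed the filter on low counts varied, against 66 of 14269 genes (0.463%), with Benjamini-Hochberg adjustment over all genes. None had an unadjusted p under 0.05 either, where 812 of all genes did, and limma's test also called 0 of the 8. Maf came nearest, at an unadjusted p of 0.0692 (adjusted p = 0.967), and the others had adjusted p = 1.00. Prdm1 was removed by the filter, and without any filter had an unadjusted p of 0.117. Under a single common dispersion, Hlx (adjusted p = 0.0441) and Maf (adjusted p = 7.13e-04) were called, among 955 genes (6.69%). On counts simulated for 14269 genes, the main test recovered 20% of genes raised 1.5-fold in 1 library, 70% of those raised 2-fold and 94% of those raised 4-fold. Changes under 2-fold were thus often not detectable at this depth. The raised genes were drawn from all levels, so these rates are not those of the low factors. Maf, 3.12-fold apart between its highest and lowest library, was not called by the main test.

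**Figure D3:**
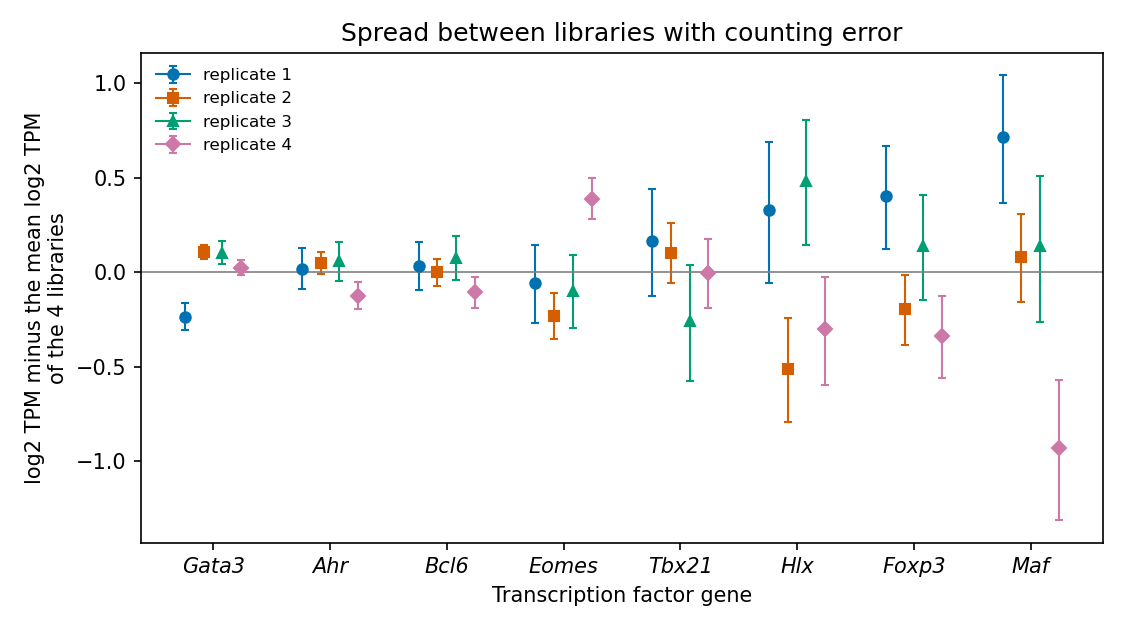
Log2 TPM of each library minus the mean of the 4 libraries, for the 8 genes with counts in every library, with exact Poisson 95% intervals as bars (counting error only). Intervals are narrowest for Gata3 and widest for Maf. Among those that lie apart are replicates 1 and 4 of Maf, 2 and 3 of Hlx, 1 and 2 of Foxp3 and 2 and 4 of Ahr. Replicate 1 of Gata3 and replicate 4 of Eomes lie apart from all their other libraries.

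**Figure D4:**
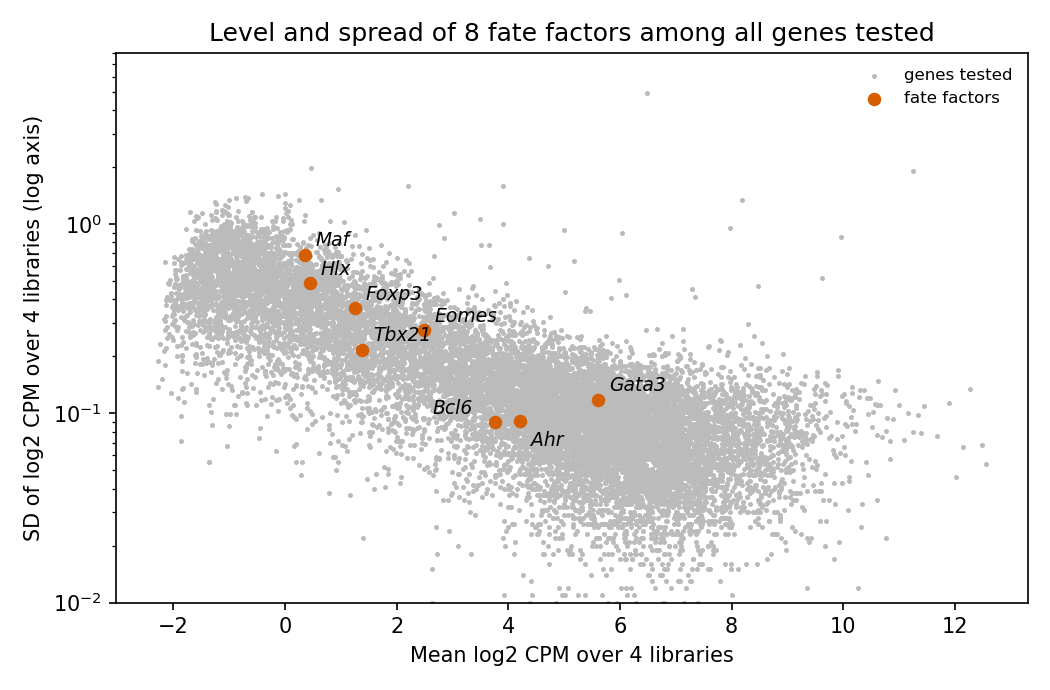
SD of log2 CPM over the 4 libraries (log axis) against mean log2 CPM, for every gene tested (grey) and the 8 factors tested (orange). The factors lie within the cloud of genes of their level, with Maf toward its upper side.

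A pattern shared by several of the factors was noticed after the values were seen. Hlx, Foxp3, Maf and Bcl6, 4 of the 8, had a higher TPM in both of replicates 1 and 3 than in both of replicates 2 and 4. Among all genes tested, 1548 of 14269 (10.8%) did. For each of the 4 genes, the counting interval of replicate 1 or 3 overlapped that of replicate 2 or 4. The interval of replicate 3 for Hlx, and of replicate 1 for Foxp3 and Maf, lay above those of both replicates 2 and 4. Those of Bcl6 all overlapped. Whether the pairs of libraries differed beyond counting error was not tested, because these intervals are of single libraries. Replicates 1 and 3 hold the fewest counts and the most Malat1, and also Rn7sk, a small nuclear RNA, at 149.6 and 80.63 TPM against 20.98 and 15.14 TPM in replicates 2 and 4. The part of depth or of nuclear RNA in this pattern was not tested, and no condition in the labels goes with it.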

How the data were processed

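The members and gene lists were chosen with earlier results of these data known. The authors deposited raw counts of read pairs per gene for each of the 4 libraries. Per the file headers they were made with featureCounts 1.4.6-p4 on the exons of GENCODE M13 (mm10), from alignments named as STAR output, with both ends mapped and the reverse strand setting. Multiply mapped reads and reads over several genes on 1 strand were not counted, so genes with near-identical copies or same-strand overlap can lose counts. Symbols came from GENCODE M21 by identifier (99.6% of genes matched).

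From the deposited counts, TPM was computed with the exonic length of each gene, and 3 counts correspond to 0.0252 to 0.0858 CPM. Genes were compared inside libraries as log2(TPM + 0.1) with an exact sign-flip test in SciPy 1.17.1, adjusted over 36 pairs. Such differences understate those of low genes. Variation was tested with edgeR 4.0.16 in R 4.3.3 (filterByExpr, TMM, intercept only, adjusted p threshold 0.05), with limma 3.58.1 and DESeq2 1.42.0 size factors as alternatives, and the test was checked on simulated data. Intervals at 95% and limits from a 0 count reflect counting alone, because without molecular identifiers several reads can stem from 1 molecule. Named genes were all 9 members, the 4 most abundant of each list (all of lists of up to 6), list genes that varied, overlapping genes and the 3 most like the most variable member. Other listed genes named for their role, such as Ifng, Il5, Cxcr5 and Il21, were chosen with their values known. A few genes that this rule takes are not reported here. Lists share some genes and were given no test of their own. Promoter windows are RefSeq's, on GRCm38.p6.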

Additional observations from a re-analysis of the deposited data

Results flagged for a closer look

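Of 144 values examined for a single library apart from the other 3, 16 were picked out, where chance alone gives about 1 in 20, or 7.2. That rate does not hold for genes with 0 in the other libraries, where a single count is enough, as for Gm37419. The 16 are therefore not read as an excess over chance. None was the level of 1 of the 9 factors.

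In replicate 1, 6 of these values were below the other libraries and belong to abundant T cell genes. Il2rb was at 358.0 TPM against 421.2 to 433.0, Stat6 at 253.6 against 287.6 to 293.0, and Il4ra at 122.6 against 148.1 to 150.8. Il2ra was at 429.4 TPM against 500.2 to 505.7, Irf4 at 486.2 against 538.0 to 545.4, and Trac at 1755 against 1926 to 1949. Gata3 was also lowest in that library. So was Cd4 by TPM, at 938.2, although its centred log2 CPM there was 0.008. In replicate 1, centred log2 CPM was -0.132 for Il2rb, -0.081 for Stat6 and -0.149 for Il4ra. It was -0.108 for Il2ra and -0.044 for Trac. The part of the TPM scale in these low values was not tested. Over the genes tested, centred log2 CPM went with GC content at a Spearman rho of -0.22, 0.03, 0.04 and 0.23 in replicates 1 to 4. The part of GC content in the low values of replicate 1 was not tested. Flicr, over the Foxp3 promoter, was at 0.248 TPM in replicate 1 against 0.616 to 0.676, and the B cell factor Pax5 at 0.0801 against 0 to 0.00871.

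In replicate 4, Sox13 was at 1.37 TPM against 0.662 to 0.740, and Trdc, the delta chain of the T cell receptor, at 0.648 against 0.738 to 0.756. In replicate 2, Epcam was at 3.47 TPM against 3.17 to 3.21, and the difference of Ahr minus Bcl6 was 0.613 log2 against 0.548 to 0.552. Single-library detections against 0 in the others were Dbx1 at 0.221 TPM and Gm37419, opposite Bcl6, at 0.677 TPM in replicate 3, Dbx2 at 0.0587 TPM in replicate 4, and Tcrg-C1 at 0.654 TPM in replicate 2.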

How the results depend on the processing

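No factor was called as varying with DESeq2 size factors, without a filter, with limma, with a correction for GC content and length, or without any 1 library, and 2 were called under a common dispersion (Hlx and Maf). Over all genes, 955 varied under the common dispersion, 27 with limma and 28 with the GC and length correction, and 41 to 68 with 1 library left out (41 without replicate 1), in place of 66. Ccl4 and Ccl3 lost their calls under the common dispersion (adjusted p = 0.274 and 0.269), with limma, with the GC and length correction and without replicate 1 or replicate 4. Ahr minus Bcl6 turned to -0.044 log2 with the longest transcript length, under which Ahr, Bcl6 and Tbx21 were at 8.59, 8.85 and 2.68 TPM. Hlx minus Foxp3 was 0.001 log2 with a pseudocount of 1 and -0.118 to 0.091 with 1 library left out, 0.016 without replicate 1 and 0.091 without replicate 2, and by CPM it was -0.771. Without replicate 3 the mean of Prdm1 was 0.0357 TPM, in place of 0.0682. As TMM-scaled CPM per kilobase, levels were 12.3 for Gata3, 3.02 for Ahr, 2.03 for Bcl6, 1.37 for Eomes, 1.05 for Tbx21, 0.614 for Hlx, 0.606 for Foxp3 and 0.164 for Maf, a change of unit that kept their order. The causes of the other changes were not tested. No paired analysis was possible because the labels give 1 group. At these depths Prdm1 rested on 0 to 16 counts a library and Maf on 57 to 154.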

Other observations

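Among the relatives of the 9 factors, some genes known from other tissues were measured in every library, and they were picked out after their values were seen. Prdm9, the histone methyltransferase that places meiotic recombination sites, had 5.82, 5.88, 7.22 and 4.82 TPM in replicates 1 to 4, from 283 to 923 counts, and was above Tbx21 in each library. Prdm16, known from brown fat and blood stem cells, had 2.89, 3.85, 4.02 and 4.93 TPM. Bcl6b, the closest relative of Bcl6, had 4.00, 6.68, 6.82 and 4.10 TPM, with replicates 2 and 3 above replicates 1 and 4, and did not pass the test of variation (edgeR adjusted p = 0.760). Sdc1, a surface marker of plasma cells that Blimp-1 cells carry, was at 22.3 ± 0.596 TPM (SD, n = 4) although Prdm1 was near 0, while Jchain, the other plasma cell marker, averaged 0.385 ± 0.122 TPM.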
